A study of Ovis aries with 10 samples.

Results

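The genes described are 7 enzymes of cholesterol synthesis: HMGCS1, IDI1, FDPS, FDFT1, SQLE, LSS and DHCR7. They were taken from a table of 33775 genes by their symbols, as a set put together with earlier results of these data known, and each of the 7 symbols matched 1 gene. All 7 were among the 18276 genes with enough reads to be tested. RNA was sequenced from the mediobasal hypothalamus, the ventral hypothalamus around the arcuate nucleus. It came from 20 adult ewes (breed Ile-de-France), of which 10 were in the follicular phase and 10 in the luteal phase. In the ovarian cycle, the follicular phase has little progesterone, and in the luteal phase the corpus luteum secretes it. No treatment or genotype is given for either group. RNA of 2 ewes was mixed in equal amounts for each library, which gave 5 libraries per phase and no ewe in both phases. A library is therefore an average of 2 animals, and in a piece of tissue fewer cells of a type and less RNA per cell cannot be told apart. The gene set had been named for sterol uptake as well, but none of its 7 genes takes up sterol, and uptake genes are given below with the other genes of the pathway.

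Cholesterol is built from acetyl-CoA by way of mevalonate, isoprenoid units, squalene and lanosterol. The brain makes its own cholesterol, because lipoproteins of the blood do not cross the blood-brain barrier, and oligodendrocytes, which wrap axons in myelin, and astrocytes are its known main producers. Genes of the pathway are known targets of the transcription factor SREBP-2, which the proteins SCAP and INSIG hold in the endoplasmic reticulum while sterol is plentiful. Cholesterol is also the starting material of progesterone and of the neurosteroids that brain tissue makes.

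No difference between the phases passed the test for any of the enzymes. By edgeR's quasi-likelihood test 0 of the 7 passed an adjusted p of 0.05 over all genes tested, and over all 18276 genes 0 (0%) passed. Unadjusted p was under 0.05 for 1 of the 7, FDPS, which averaged lower in luteal libraries, against 11.4% of all genes (4.27% higher and 7.12% lower). DESeq2 also called 0 of the 7, beside 0.227% of the 15432 genes to which it gave an adjusted p. By limma-voom 0 of the 7 were called, beside 0% of all genes. With quality weights per library limma-voom called 3 (HMGCS1 and IDI1 higher, FDPS lower), beside 32.1% of all genes. The phases did not overlap in 0 of the 7, against 1.12% of all genes. Of the 7, 3 averaged higher in luteal libraries and 4 lower, where 51.5% of all genes averaged higher. Their median log2 fold change (luteal over follicular) was -0.0082, beside 0.011 over all genes tested. Levels are given as CPM, counts per unit of the library's TMM-scaled total, which does not correct for gene length and so compares libraries, not genes. The libraries held 20644992 to 43193449 reads, and the lowest count of any of the 7 genes in a library was 401 reads, where counting error is 4.99% of the value.

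**Figure D1:**
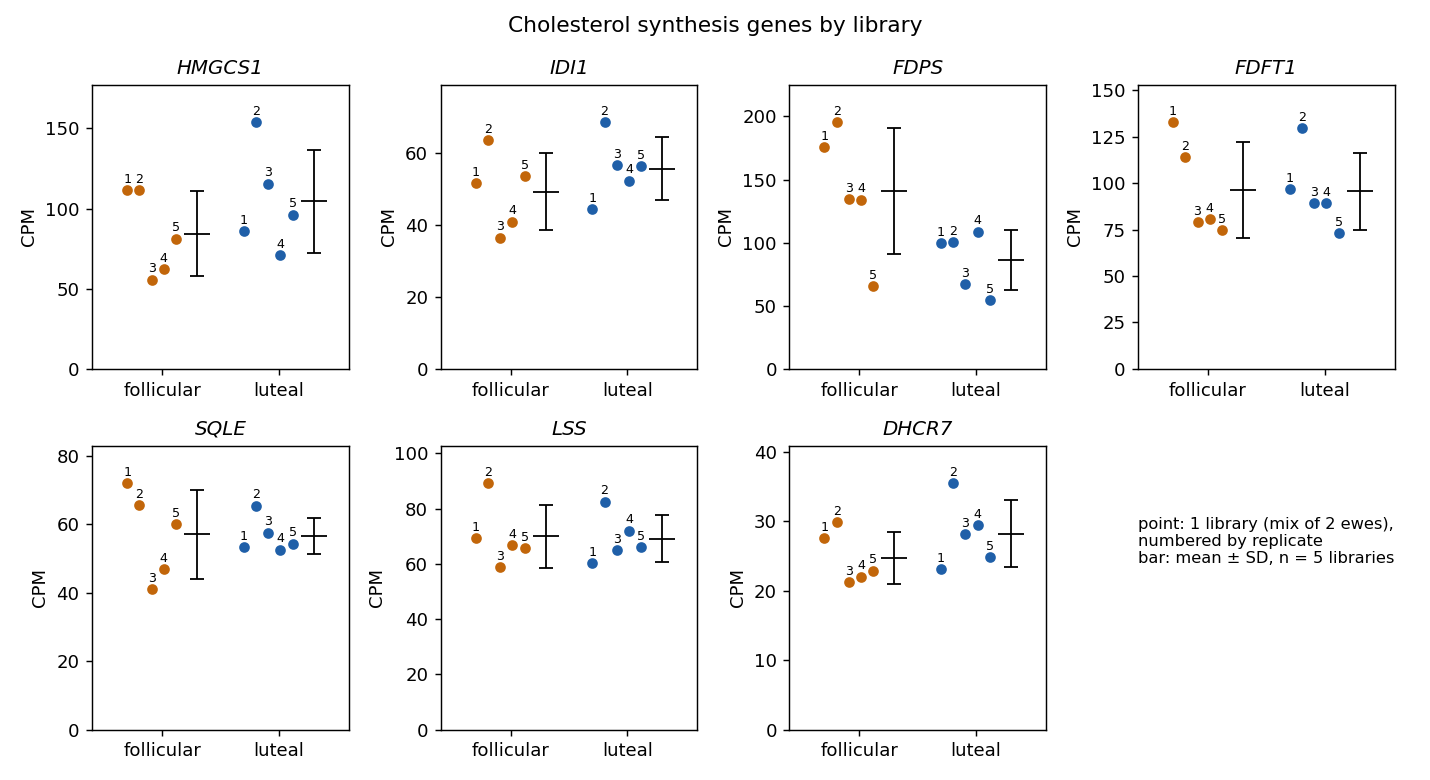
CPM (vertical axis, from 0) of each of the 7 enzymes in every follicular (orange) and luteal (blue) library, numbered by replicate, with the mean and SD of the 5 libraries of each phase beside the points. The phases overlap in all 7 panels; FDPS has 4 follicular libraries above every luteal one and follicular 5 below 4 of the 5 luteal libraries, and luteal 2 is the highest luteal library in every panel but FDPS.

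HMGCS1 encodes the cytosolic HMG-CoA synthase, which acts early in the pathway, before mevalonate. Its levels in follicular libraries 1 to 5 were 111.5, 111.3, 55.7, 62.1 and 81.3 CPM, and in luteal libraries 1 to 5 they were 85.8, 154.0, 115.6, 71.0 and 96.2 CPM. Luteal 2 and 3 lay above every follicular library and the other 3 luteal libraries within the follicular range. The follicular mean was 84.4 ± 26.4 CPM and the luteal mean 104.5 ± 32.0 CPM (± is the SD over the 5 libraries of a phase throughout, and pairs of means give the follicular one first). The log2 fold change was 0.31 (SE 0.24, 95% interval -0.22 to 0.84), with an edgeR adjusted p of 0.517. Without luteal 2 it was 0.13 and without follicular 3 it was 0.19.

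IDI1 and FDPS act on the isoprenoid units. IDI1, the isomerase that makes dimethylallyl diphosphate, had 51.7, 63.7, 36.5, 40.9 and 53.6 CPM in follicular libraries 1 to 5 and 44.4, 68.7, 56.6, 52.3 and 56.5 CPM in luteal libraries 1 to 5. Only luteal 2 lay above the follicular range, and follicular 3 and 4 lay below every luteal library. Its log2 fold change was 0.17 (SE 0.16, 95% interval -0.18 to 0.52; edgeR adjusted p = 0.568). It was 0.088 without luteal 2, 0.085 without follicular 3, 0.11 without follicular 4 and 0.29 without follicular 2.

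FDPS, farnesyl diphosphate synthase, joins these units into the precursor of squalene and of the isoprenoid tails of proteins. It had 175.7, 195.6, 134.3, 134.1 and 65.4 CPM in follicular libraries 1 to 5 and 99.7, 100.1, 67.3, 108.7 and 54.7 CPM in luteal libraries 1 to 5. Thus 4 follicular libraries were above every luteal library, and follicular 5 was below 4 of them, so the phases overlapped through 1 library. The follicular mean was 141.0 ± 50.0 CPM and the luteal mean 86.1 ± 23.6 CPM, a ratio of 0.611. The log2 fold change was -0.71 (SE 0.27, 95% interval -1.31 to -0.11), with an unadjusted p of 0.0234 and an adjusted p of 0.426 by edgeR, which is no call. The adjusted p was 0.273 by DESeq2 and 0.501 by limma-voom. By edgeR it was 0.0606 without follicular 5 (log2 fold change -0.89), the library through which the phases overlapped. With follicular 1, 2, 3 or 4 left out instead, the edgeR adjusted p was 0.694, 0.428, 0.750 and 0.669. No gene of all those tested passed by edgeR with any follicular library left out. Follicular 5 also stood apart from the other follicular libraries on the first principal component of all genes, described next (48.1, the nearest at -1.96). Leaving it out thus also moves the phases apart on that axis.

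The level of FDPS also followed the main axis on which the libraries differ. The first principal component of all genes tested held 51.0% of the variance and ran from -61.6 to 48.1 in follicular and from -14.4 to 58.2 in luteal libraries (two-sided exact permutation test of the means, p = 0.143). The 20 cytosolic ribosomal protein genes examined, not the whole class, took 2.21% ± 0.535 of the follicular and 1.79% ± 0.254 of the luteal reads. Libraries low on that axis, where FDPS was high, had the larger shares. Their part in the FDPS values was not tested. The correlation of FDPS with the component over the 10 libraries was r = -0.82 (permutation p = 0.00423, adjusted p = 0.0296 over 7 relations) and rho = -0.76 (permutation p = 0.0154, adjusted p = 0.0601). It was r = -0.80 without the 2 libraries farthest out, and r = -0.75 after each phase was centred on its own mean. With the component as a covariate the log2 fold change of FDPS was -0.31 (SE 0.23; edgeR adjusted p = 0.775). A size of r above 0.8 with this component was common, at 40.6% of all genes. Among the other 6 enzymes r with it ran from -0.30 to 0.64, and none passed adjustment. By rank IDI1 followed the component about as closely as FDPS, in the other direction (rho = 0.75, permutation p = 0.0172, adjusted p = 0.0601). Its r of 0.64 was 0.49 without the 2 libraries farthest out.

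**Figure D2:**
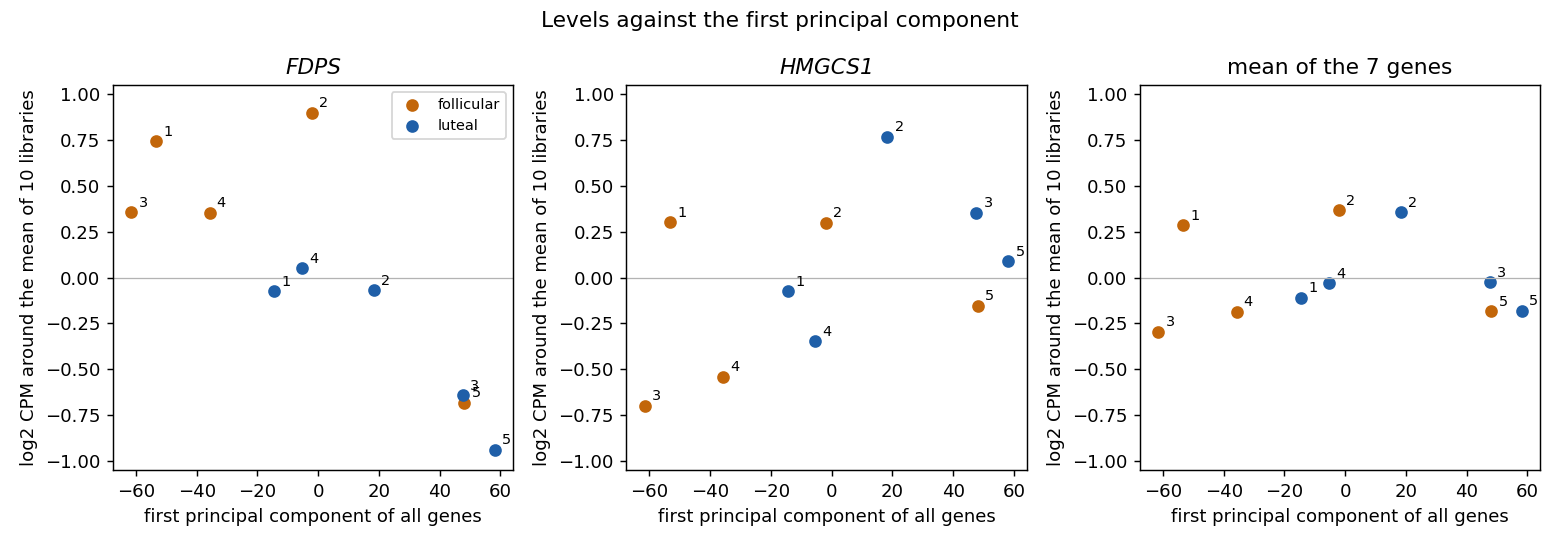
Log2 CPM around the mean of the 10 libraries (vertical axis) for FDPS, for HMGCS1 and for the mean of the 7 enzymes against the first principal component of all genes tested (horizontal axis, no unit), 1 numbered point per library, follicular in orange and luteal in blue. FDPS falls along the component (r = -0.82). The mean of the 7, whose own r ran from -0.82 (FDPS) to 0.64 (IDI1), has r = -0.03 with it.

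FDFT1 and SQLE make and oxidise squalene. FDFT1, squalene synthase, commits farnesyl diphosphate to sterols and had 132.9, 113.8, 79.1, 80.5 and 74.5 CPM in follicular libraries 1 to 5 and 96.7, 129.5, 89.2, 89.4 and 73.0 CPM in luteal libraries 1 to 5. High values stood in follicular 1 and 2 and in luteal 2, and the ranges of the phases were nearly the same. SQLE, squalene epoxidase, had 72.1, 65.5, 40.9, 46.7 and 59.9 CPM in the follicular and 53.4, 65.4, 57.5, 52.5 and 54.3 CPM in the luteal libraries. All luteal values of SQLE lay inside its follicular range.

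LSS and DHCR7 act on the ring. LSS, lanosterol synthase, closes it and had 69.2, 89.4, 59.0, 66.7 and 65.8 CPM in follicular libraries 1 to 5 and 60.2, 82.6, 64.9, 72.0 and 66.1 CPM in luteal libraries 1 to 5, all luteal values again inside the follicular range. DHCR7, which catalyses the last step from 7-dehydrocholesterol to cholesterol, had 27.5, 29.8, 21.3, 22.0 and 22.9 CPM in the follicular and 23.1, 35.5, 28.1, 29.5 and 24.8 CPM in the luteal libraries. Follicular 3, 4 and 5 lay below every luteal library in DHCR7, and luteal 2 above every follicular one.

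The log2 fold changes of FDFT1, SQLE and LSS were close to 0, and their intervals bound the size of a difference. They were -0.0082 (95% interval -0.42 to 0.41) for FDFT1, -0.011 (-0.34 to 0.32) for SQLE and -0.018 (-0.29 to 0.26) for LSS. That of DHCR7 was 0.19 (-0.12 to 0.50) and 0.094 without luteal 2. For these 4 genes edgeR gave adjusted p values between 0.502 and 0.985. The interval of LSS was the narrowest of the 7 and that of FDPS the widest.

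**Figure D3:**
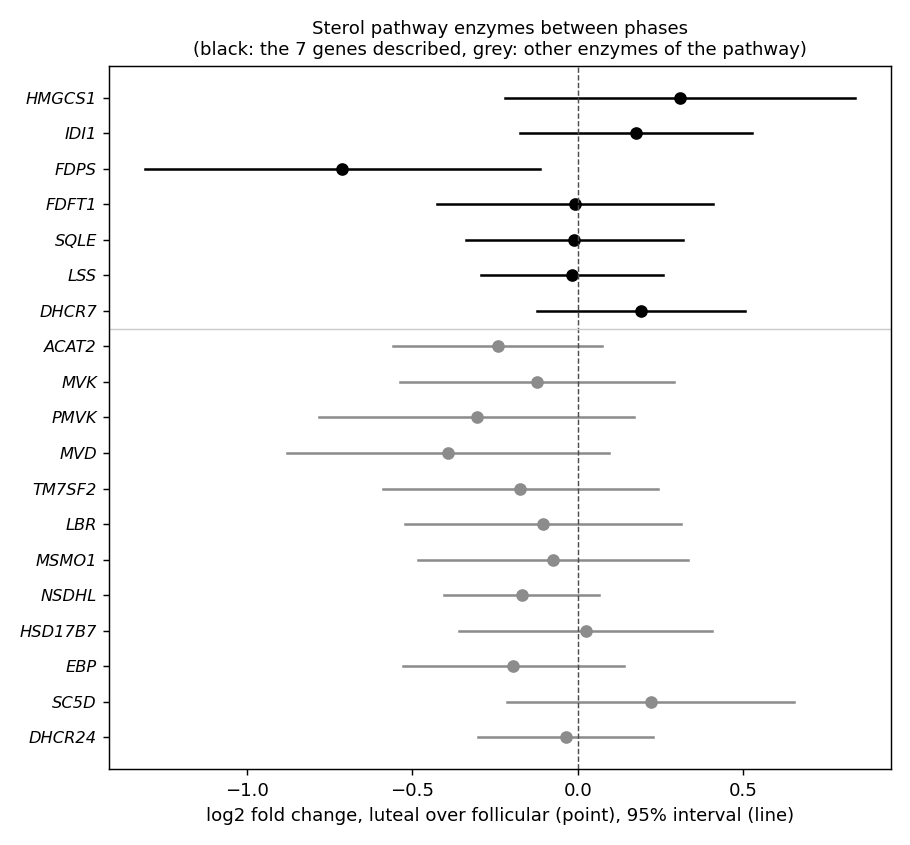
Log2 fold change of luteal over follicular libraries (points, horizontal axis) with its 95% interval (lines) for the 7 enzymes (black, in the order of the pathway) and 12 further enzymes of the pathway (grey). Of the 19 intervals, that of FDPS alone leaves out 0, before any adjustment for the number of genes.

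How far the levels spread between libraries differed among the enzymes. Over all 10 libraries the highest level was 1.52 times the lowest for LSS, 2.77 times for HMGCS1 and 3.57 times for FDPS. The coefficient of variation over the follicular libraries ran from 15.2% in DHCR7 to 35.4% in FDPS, beside a median of 21.5% over all genes tested. Over the luteal libraries it ran from 9.30% in SQLE to 30.7% in HMGCS1, beside 18.9%. HMGCS1, FDPS and FDFT1 were above the median of all genes in both phases, and LSS and DHCR7 below it in both. The summed level of the 7 was 640.5, 669.0, 426.7, 453.2 and 423.4 CPM in follicular libraries 1 to 5 and 463.3, 635.8, 479.1, 475.6 and 425.6 CPM in luteal libraries 1 to 5. Follicular 1 and 2 and luteal 2 thus stood above the other 7 libraries, which lay between 423.4 and 479.1 CPM.

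The same libraries were high or low in most of the 7 genes. Follicular 2 was above the 10-library median in 7 of the 7 genes, follicular 1 and luteal 2 in 6, and follicular 3 and luteal 1 in 1. Follicular 3 was among the 3 lowest libraries in 6 of the 7 genes; the exception was FDPS. Of the 21 pairs of enzymes, 19 had a positive Pearson r of log2 CPM over the 10 libraries, with a median of 0.68. The 15 pairs without FDPS ran from 0.48 (IDI1 with FDFT1) to 0.87 (HMGCS1 with IDI1). The 6 pairs with FDPS ran from -0.18 (with IDI1) to 0.59 (with FDFT1). After centring each phase on its own mean, 21 of the 21 pairs were positive, with a median of 0.72. All pairs share the same libraries and their scaling, so these values describe 10 libraries and are not independent of each other. Without luteal 2 and follicular 2, which stood farthest out, the median was 0.52.

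The enzymes differed in how closely they followed each other. Against the mean standardised level of the other 6 enzymes, r was 0.85 (rho 0.90) for DHCR7, 0.82 for FDFT1, 0.81 for LSS and SQLE, 0.79 for HMGCS1, 0.76 for IDI1 and 0.18 (rho 0.16) for FDPS. After centring within each phase these were 0.92 for DHCR7 and 0.38 for FDPS. Without the 2 libraries farthest out in the mean of the other 6, r was 0.83 for SQLE, 0.73 for DHCR7, 0.68 for FDFT1, 0.67 for HMGCS1, 0.57 for LSS, 0.51 for IDI1 and 0.49 for FDPS, so the order rests in part on those libraries and FDPS then lay close to IDI1 and LSS.

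Among the genes whose pattern over the libraries was most like that of the 7 enzymes were INSIG1, FASN, KIAA1755 and SCD, by Pearson r of log2 CPM with the mean standardised level of the 7 over 10 libraries, genes without a proper symbol left aside. INSIG1, the sterol-dependent anchor of SCAP, had r = 0.93 (rho 0.96; r = 0.88 without luteal 2 and follicular 2, the 2 libraries farthest out). Its levels were 43.1, 55.7, 14.6, 18.2 and 27.1 CPM in follicular libraries 1 to 5 and 29.1, 89.4, 37.5, 48.0 and 29.2 CPM in luteal libraries 1 to 5. Luteal 2 was the highest library and follicular 3 and 4 the lowest, as in HMGCS1. FASN, fatty acid synthase, had r = 0.92 (rho 0.93), KIAA1755 0.89 (rho 0.76) and SCD, a desaturase of fatty acids, 0.89 (rho 0.85). Without those 2 libraries r was 0.79 for FASN, 0.75 for KIAA1755 and 0.80 for SCD.

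By edgeR 0 of these 4 genes passed between the phases. INSIG1 averaged 31.7 ± 17.3 and 46.6 ± 25.1 CPM and FASN 163.3 ± 21.6 and 171.6 ± 19.3 CPM. Their edgeR adjusted p was 0.490 and 0.743. After centring within phase, r with the 7 enzymes was 0.98 for INSIG1 and 0.93 for FASN, as large as before it or larger.

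**Figure D4:**
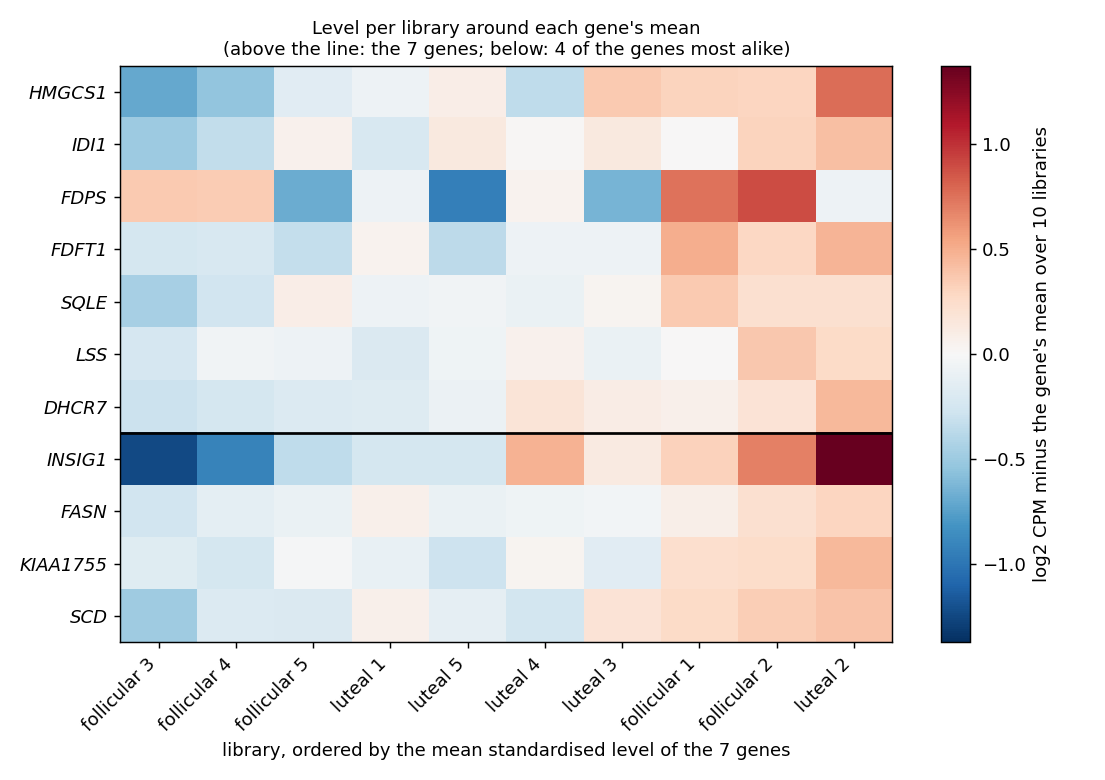
Log2 CPM minus the gene's mean over 10 libraries (colour, red higher and blue lower) for the 7 enzymes in the order of the pathway and, below the line, 4 of the genes most like them, with the libraries ordered from left to right by the mean standardised level of the 7. Follicular 3 and 4 stand at the low end and follicular 1, follicular 2 and luteal 2 at the high end, and FDPS departs from the other rows in follicular 3, 4 and 5 and luteal 3 and 5.

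Other genes of sterol and lipid metabolism were grouped in 6 lists with 63 tested genes. By edgeR 0 of the 63 passed, and unadjusted p was under 0.05 for 3, or 4.76%, below the 11.4% of all genes. Of the 63, 6 had r above 0.8 with the mean standardised level of the 7 enzymes, among them MSMO1, INSIG1, FASN and SCD. Over all genes this held for 28 of 18269, or 0.153%. A size of r above 0.8 with the first principal component was seen in 28 of the 63 (44.4%, near the 40.6% of all genes), and no gene of the 63 met both limits.

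Of the 13 other enzymes from acetyl-CoA to cholesterol that were tested, 3 averaged higher and 10 lower in luteal libraries, with a median log2 fold change of -0.12 and 0 passing in either direction. The smallest p values belonged to MVD, which decarboxylates mevalonate diphosphate (66.4 ± 18.4 and 50.6 ± 12.8 CPM, log2 fold change -0.39), ACAT2, which joins acetyl-CoA units (-0.24), and NSDHL, which removes methyl groups from the ring (-0.17). These had edgeR adjusted p values of 0.441 to 0.455. MVD (r = -0.92) and ACAT2 (r = -0.90) followed the first principal component, as FDPS did, and had r = 0.21 with the 7 enzymes. MSMO1, a methylsterol oxidase picked out after its values were seen, kept closer to the 7, with r = 0.87 (rank 11 of 18269), and averaged 73.8 ± 22.8 and 70.1 ± 8.39 CPM (log2 fold change -0.075, SE 0.19). CYP51A1 was not analysed here.

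Of 12 genes that sense sterol or process SREBP, 9 averaged higher and 3 lower in luteal libraries, with a median log2 fold change of 0.21 and 0 passing. ERLIN2, a protein of the endoplasmic reticulum, averaged 99.5 ± 11.5 and 116.7 ± 10.5 CPM (log2 fold change 0.23, SE 0.10). SREBF1, the gene of SREBP-1, averaged 131.2 ± 12.6 and 162.8 ± 37.6 CPM (0.31, SE 0.15), and MBTPS1, the protease that cuts SREBP first, 140.4 ± 21.8 and 164.0 ± 17.1 CPM (0.22, SE 0.12). These had edgeR adjusted p values of 0.426 to 0.432. With the first principal component r was 0.91 for ERLIN2, 0.83 for MBTPS1 and 0.07 for SREBF1. SREBF2, named after its value was seen, averaged 334.7 ± 36.1 and 368.5 ± 48.4 CPM (0.14, SE 0.11).

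Of 13 genes of sterol uptake and of its export from lysosomes, 8 averaged higher and 5 lower in luteal libraries, with a median log2 fold change of 0.042 and 0 passing. LRP1, a large endocytic receptor of apolipoprotein E, averaged 251.9 ± 41.7 and 328.2 ± 29.1 CPM (log2 fold change 0.38, SE 0.12; unadjusted p = 0.00887 and adjusted p = 0.426 by edgeR). VLDLR, a receptor of the same family, averaged 9.40 ± 1.83 and 12.9 ± 1.99 CPM (0.45, SE 0.17), and STARD4, a carrier of sterol in the cytosol, 1.16 ± 0.62 and 2.09 ± 0.84 CPM (0.82, SE 0.38). In all 3 the phases overlapped, and r with the first principal component was 0.90 for LRP1, 0.86 for VLDLR and 0.92 for STARD4. With the component as a covariate the log2 fold change was 0.21 for LRP1 and 0.25 for VLDLR.

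Of 8 genes of sterol efflux, storage and oxidation, 5 averaged higher and 3 lower in luteal libraries (median log2 fold change 0.096). NR1H3, an oxysterol receptor, averaged 62.3 ± 12.5 and 49.4 ± 7.86 CPM (-0.33, SE 0.16), ABCG1, a sterol exporter, 70.2 ± 8.04 and 80.2 ± 7.48 CPM (0.19, SE 0.10), and APOE, the main apolipoprotein of brain, 3175 ± 967 and 2313 ± 758 CPM (-0.46, SE 0.27). APOE had r = -0.97 with the first principal component. Of 9 genes of the isoprenoid branch, 5 averaged higher and 4 lower (median 0.11), with the smallest p for DHDDS, a subunit of the dolichol-forming enzyme (-0.14, SE 0.085), FNTA, a subunit of protein farnesyltransferase (0.25, SE 0.17), and NUS1, the partner of DHDDS (0.24, SE 0.21). None of these 17 genes passed.

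Of 8 genes of fatty acid synthesis that SREBP-1 is known to drive, 5 averaged higher and 3 lower in luteal libraries (median log2 fold change 0.052) and 0 passed. ACLY, which makes cytosolic acetyl-CoA, had a log2 fold change of 0.15 (SE 0.17), ACACA, acetyl-CoA carboxylase, -0.068 (SE 0.094) and FASN 0.072 (SE 0.11). Gene by gene, r with the mean standardised level of the 7 ran from -0.24 (ACSS2) to 0.92 (FASN) with a median of 0.53, and it was above 0.8 in 2 of the 8, FASN and SCD. The r between the mean centred log2 levels of the 8 and of the 7 was 0.94 (rho 0.92; 0.94 after centring within phase). The same measure was 0.76 for the 13 other enzymes of sterol synthesis and ran from -0.10 to 0.39 for the other 4 lists. These means are not divided by each gene's SD, so genes that vary more weigh more. Among the 8, the highest level of ELOVL6 was 6.52 times its lowest, beside 1.84 times for SCD. Gene by gene ELOVL6 had r = 0.61.

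Markers of cell types were set beside this pattern in the same way. The mean centred log2 level of the 7 enzymes had r = 0.68 (rho 0.56) with 8 markers of microglia and macrophages, which summed to 352.7 to 592.2 CPM in follicular and 367.9 to 454.5 CPM in luteal libraries. With 10 oligodendrocyte markers r was 0.55 (rho 0.47), and these summed to 876.7 to 1488 CPM in follicular and 562.4 to 1377 CPM in luteal libraries. Markers within each of these 2 lists went both ways between the phases. In luteal libraries 3 of the 8 averaged higher and 5 lower, and 3 of the 10 higher and 7 lower. The mean of such a list need not follow the amount of its cells. For astrocytes, neurons, endothelium, ependyma with tanycytes, oligodendrocyte precursors and choroid plexus r ran from -0.15 to 0.26. No tested marker of these lists was at 0 in any library, and the part of cell composition in the pattern was not tested. The 10 markers of the mediobasal hypothalamus were all tested and summed to 1390 to 2275 CPM, with r = -0.41. With total reads r was -0.18 and with the first principal component -0.03.

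Of the 7 genes, 3 overlap others in RefSeq's annotation of ARS-UI_Ramb_v3.0: IDI1 overlaps WDR37, FDFT1 overlaps CTSB and a long non-coding RNA, and FDPS a long non-coding RNA. Since the strand setting of the counting is not known, reads of such neighbours cannot be told apart from those of the enzymes. FDPS is also known to have processed copies in mammalian genomes, and how reads shared with copies were counted is not given.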

How the data were processed

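Stranded TruSeq mRNA libraries were sequenced from TriReagent extracts, per the labels' protocols. The submitters' processing notes list featureCounts 2.0.0, TopHat2 2.1.1, Bowtie2 2.3.5.1 and SAMtools 1.9, with no order. Genome build, counting strand and treatment of shared reads are not given in the sources used here. Raw counts were deposited by the authors, as whole reads per gene for the 10 libraries (20644992 to 43193449 reads); counting error of the 7 genes is small beside the spread of the libraries. Of the gene identifiers 94.4% matched RefSeq's table of assembly ARS-UI_Ramb_v3.0, used for names and overlaps.

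Counts were analysed in R 4.3.3 with the two-sided quasi-likelihood test of edgeR 4.0.16, phase as the only term, after filterByExpr (minimum count 10, minimum total 15) and TMM scaling. Benjamini-Hochberg adjustment ran over all genes tested, and an adjusted p under 0.05 was a call. Fold changes are luteal over follicular. Log2 CPM for scores and correlations used a prior count of 2. A gene's standardised level is its log2 CPM, centred and divided by its SD over the 10 libraries. DESeq2 1.42.0 and limma-voom (limma 3.58.1) were alternatives, besides other scaling, filters, covariates and left-out libraries (21 settings in all). No promoter or protein sequence was used here, so a planned search for promoter motifs was not run. The tests of edgeR, DESeq2 and limma-voom without quality weights were run on simulated data, with 100 genes changed 1.5-fold and 100 changed 2-fold. Of these edgeR recovered 5% and 54%, DESeq2 29% and 79%, and limma-voom 7% and 51%. Among the calls, 4.84% fell on unchanged genes with edgeR, 25.5% with DESeq2 and 4.92% with limma-voom. Each gene was drawn independently there, without the axis that many genes share in the data, so these rates need not hold for the data. The quality weights were not simulated.

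The 7 genes and all lists were chosen with earlier results of these data known. Named were the 7, up to 3 genes with the smallest p per pathway list, and those among the 5 genes most alike; 2 genes of the pathway lists are not reported here, though counts over lists include them. All 45 pairs of libraries differed beyond sampling noise in a chi-square test over genes, which shows only that no library's counts copy another's. Each library counted as 1 replicate because it was made from its own mix of 2 ewes. Of 186 list genes 175 were matched and 174 tested.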

Additional observations from a re-analysis of the deposited data

Results flagged for a closer look

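The mean level of the 7 enzymes stood out in 1 library. Their mean log2 level, centred on the 10 libraries, was 0.36 in luteal 2 and at most -0.025 in the other luteal libraries. The gap to the next library took a share of 0.711 of the luteal range, above Dixon's limit of 0.71 for 5 samples. This was the single case among 58 groups of 5 libraries examined, where chance gives about 1 in 20, or 2.9. In follicular libraries the same measure was 0.28 and 0.37 in libraries 1 and 2, so luteal 2 was not higher than every follicular library. FDPS was not raised in luteal 2 (log2 CPM -0.068 around its mean over the 10 libraries). Taken singly, no enzyme was beyond Dixon's limit in luteal 2.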

How the results depend on the processing

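Under 21 other settings HMGCS1, IDI1 and DHCR7 averaged higher and FDPS lower in luteal libraries each time, and the sign of FDFT1, SQLE and LSS changed. edgeR called 0 genes except without luteal 4 (leaving out single libraries gave 0 to 1); DESeq2 called 35 and limma-voom 0. limma-voom with quality weights, which ran from 0.237 for follicular 5 to 3.87 for luteal 2, called 5867 genes (32.1%), 3 of the 7 enzymes among them: HMGCS1 (log2 fold change 0.73, adjusted p = 0.0346), IDI1 (0.43, 0.0415) and FDPS (-0.69, 0.0169). Under every other setting 0 of the 7 passed. With these weights FDFT1 was 0.23, SQLE 0.20, LSS 0.12 and KIAA1755 0.25. The median of the 7 was above 0 under 14 settings and below 0 under 7.

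The sign of these log2 fold changes also turned as follows. FDFT1 was 0.011 with upper-quartile scaling, 0.0015 with no filter, 0.097 without follicular 1 and 3, 0.13 with the first principal component and 0.011 with limma-voom. SQLE was 0.0064 with upper-quartile scaling and 0.0090 with limma-voom. Without follicular 1 and 3 ACLY was -0.026. With the component MVD was 0.030, ACAT2 0.0035, APOE 0.062, FNTA -0.016, NUS1 -0.12, ACLY -0.12, ACACA 0.035 and KIAA1755 0.0048. Leaving out single libraries gave 0.13 to 0.44 for HMGCS1, 0.085 to 0.29 for IDI1, 0.094 to 0.27 for DHCR7, -0.89 to -0.56 for FDPS, -0.14 to 0.14 for FDFT1, -0.11 to 0.091 for SQLE, -0.089 to 0.093 for LSS, -0.00046 to 0.21 for SCD and -0.15 to 0.050 for KIAA1755. None of these passed in these settings, and the cause was not tested.

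With the replicate number as a block edgeR called 0 genes and 0 of the 7, and FDPS was -0.67 (SE 0.13, adjusted p = 0.143), FDFT1 0.0053 and SQLE 0.014. The labels do not say that numbers pair libraries: same-numbered libraries had correlated deviations above 0.1 for 3 of 5 numbers, and 4 of 10 libraries correlated best with their own number.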
